A study of Homo sapiens with 6 samples.

Results

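STEAP3 and the genes of cellular iron handling were examined in the breast cancer line MDA-MB-231, an established human cell line. The set held 10 genes, STEAP3, TFRC, SLC11A2, SLC40A1, FTH1, FTL, NCOA4, IREB2, ACO1 and SLC39A14, out of 20042 genes in the count table, and all 10 were found by Ensembl identifier and had enough counts to be fitted. They were chosen from the counts of the comparison described here, with earlier results of it known, so that their levels and fold changes are a description and carry no test. RNA sequencing was done on 6 cultures. In 3 of them the cells had been transfected with siRNA-1, a short interfering RNA aimed at the transcript ERBBride and called a knock down of it in the labels (siRNA-1). The other 3 cultures had received a control siRNA and are labelled WT (siCTRL). Both groups were the same unmodified line, and transfected cultures can hold cells that took up little siRNA. Only siRNA-1 was given, so that an effect of its sequence and an effect of losing ERBBride cannot be told apart. ERBBride has no row under that name in the table, and its own level was not analysed here.

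Cells take up most of their iron as ferric iron bound to transferrin, through the transferrin receptor that TFRC encodes. In the acidic endosome the ferric iron is released and reduced to ferrous iron by a metalloreductase, a role first described for STEAP3 in red cell precursors of the mouse, and it then crosses the endosomal membrane through divalent metal transporters. Iron that is not used is stored inside ferritin, a shell of heavy (FTH1) and light (FTL) chains, or leaves the cell through ferroportin (SLC40A1). The iron regulatory proteins, encoded by ACO1 and IREB2, bind hairpins called iron-responsive elements (IREs) in the untranslated regions (UTRs) of messenger RNAs when iron is scarce. An IRE in a 5′ UTR blocks translation when bound, and the IREs in the 3′ UTR of the TFRC messenger protect it from decay.

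IREs found in members are shown here because they are the sites that these proteins bind. Transcripts of GENCODE release 29 on GRCh38 were searched for a C, any 5 bases, the loop CAGTG followed by A, C or T, and 5 bases able to pair with the 5 before the loop, G with T pairs included. Sites in SLC39A14 were left out, so whether it holds the pattern is not stated here. Among the other members the pattern was present in the 5′ UTR of FTH1, FTL and SLC40A1 and, at 4 places, in the 3′ UTR of TFRC. It was present in the 5′ UTR of 20 of 12212 fitted genes with such a region (0.164%) and in the 3′ UTR of 83 of 12344 (0.672%). A match is a description of the letters, and the pattern does not cover hairpins with other bulges. SLC11A2, some of whose messengers are known to carry an IRE in the 3′ UTR, had no match to it. The sites are printed 5′ to 3′ in the sense of the transcript, with the bulged C and the loop in capitals.
FTH1: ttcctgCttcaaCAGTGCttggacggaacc
FTL: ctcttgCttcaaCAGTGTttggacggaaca
SLC40A1: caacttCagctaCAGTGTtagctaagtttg
TFRC a: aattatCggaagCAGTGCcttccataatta
TFRC b: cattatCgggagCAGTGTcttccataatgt
TFRC c: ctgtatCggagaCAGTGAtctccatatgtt
TFRC d: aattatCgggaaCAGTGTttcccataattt

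On GRCh38 the FTH1 site lies at chr11:61967573-61967602 on the minus strand and the FTL site at chr19:48965335-48965364 on the plus strand. The SLC40A1 site lies at chr2:189580660-189580689 on the minus strand. The TFRC sites lie on the minus strand at chr3:196050978-196051007, chr3:196050574-196050603, chr3:196050509-196050538 and chr3:196050462-196050491, in the order printed. None of these 7 sites spans an intron.

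Total counts per library ranged from 12813706 to 15014434, and 3 counts came to at most 0.234 CPM (counts per 1000000), a limit that covers counting error only. Levels are CPM after TMM scaling (trimmed mean of M values), given as mean ± SD with n = 3 cultures per group. The labels call the cultures biological replicates without saying what separated them, so spreads and p-values measure the variation between these samples, which may be technical. The control library siCTRL 2 stood apart: it lay at -22.3 on the second principal component (8.43% of variance), against -2.90 to 13.3 for the other 5 libraries. Its TFRC and FTL levels were lower than in the other controls, by 0.52 and 0.55 on the log2 scale. Of the mesenchymal markers of the line, VIM, CD44, EGFR, AXL and MSN were abundant, summing with SPARC to 3550 to 3710 CPM in siRNA-1 and 6670 to 6920 CPM in siCTRL libraries. SPARC, at 0.838 CPM in siRNA-1 and 0.418 CPM in siCTRL cultures, was close to undetected. Of 5 luminal markers, PGR had 0 counts in every library and ESR1 at most 3. The sum was 9.41 to 10.4 CPM in siRNA-1 against 26.2 to 29 CPM in siCTRL, mostly EPCAM and GATA3. EPCAM was at 5.29 CPM in siRNA-1 and 16.1 CPM in siCTRL, and GATA3 at 4.40 CPM in siRNA-1 and 11.2 CPM in siCTRL. Of 10 erythroid and macrophage markers, 3 had more than 3 counts over all libraries. HBA1, HBA2 and HBB were at 0, and the sum of 176 to 181 CPM in siRNA-1 and 132 to 182 CPM in siCTRL libraries was mostly CD68, which encodes a lysosomal protein. CSF1R of the same list had 0.961 CPM in siRNA-1 and 5.20 CPM in siCTRL cultures. The part of these marker differences in the values of the iron genes was not tested. Fewer cells with a transcript and less of it per cell cannot be told apart in such bulk samples.

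STEAP3, the endosomal ferric reductase, stood far below its control level. It had 608, 696 and 648 counts in siRNA-1 libraries and 2633, 2147 and 2430 counts in siCTRL libraries. This corresponded to 42.5, 46.1 and 44.2 CPM in siRNA-1 and to 180.2, 167 and 180.6 CPM in siCTRL. The 3 siRNA-1 libraries lay close together and all far below the lowest control. The mean was 44.2 ± 1.82 CPM in siRNA-1 and 176 ± 7.91 CPM in siCTRL, so that siRNA-1 cells held 25.2% of the control level (log2 fold change -1.99, SE 0.062). Without siCTRL 2 the log2 fold change was -2.04. Of all 12440 genes fitted, 1.22% had a lower log2 fold change than STEAP3. STEAP3 (ENSG00000115107) is a protein-coding gene at chr2:119223831-119265652 on the plus strand (GENCODE 29, GRCh38, as for the positions of the other genes). The antisense gene STEAP3-AS1 overlaps 11% of its exonic bases, and whether reads were counted by strand is not stated.

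**Figure D1:**
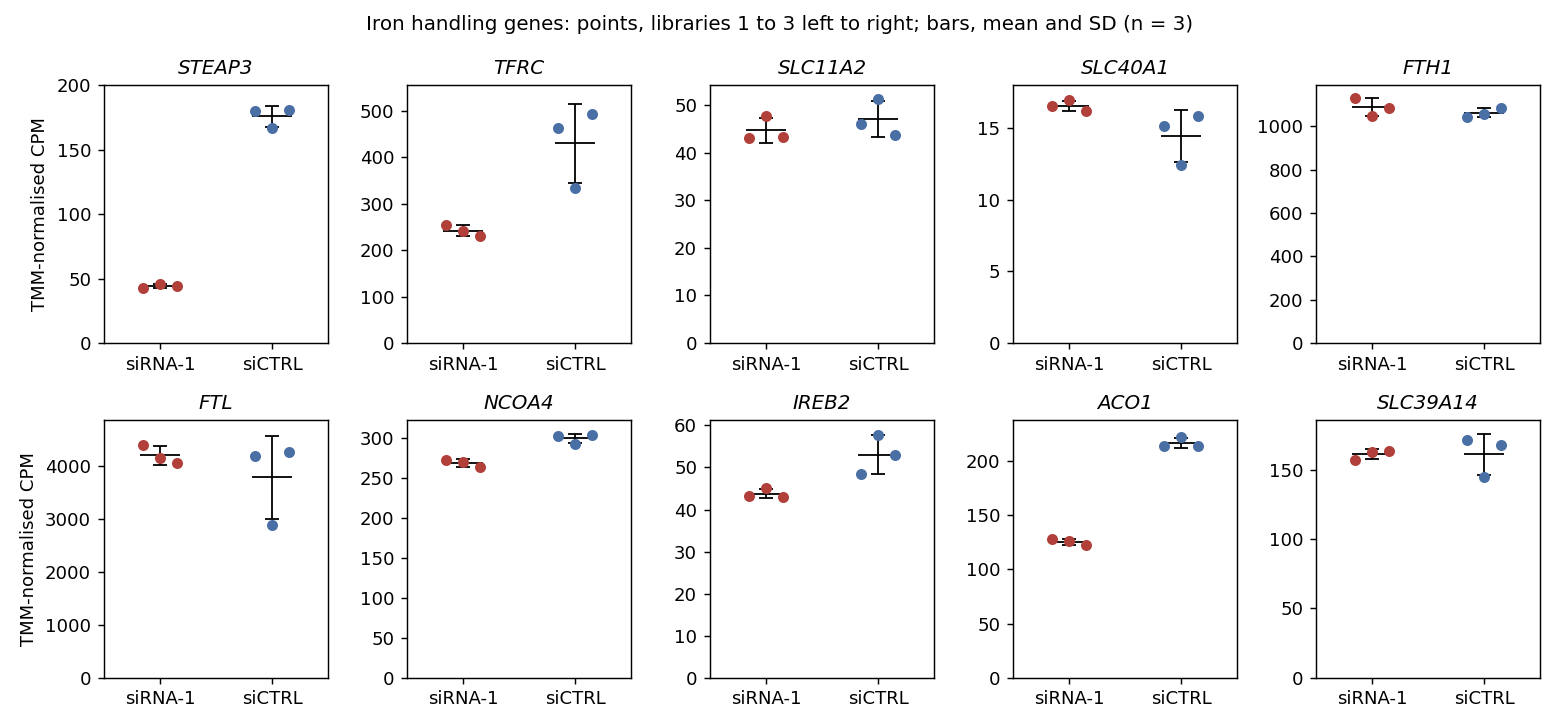
TMM-normalised CPM (vertical axes from 0) of the 10 iron handling genes, with siRNA-1 left of siCTRL in each panel. Points are libraries 1 to 3 from left to right and bars give the mean and SD (n = 3): STEAP3 lay between 42.5 and 46.1 CPM in siRNA-1 libraries, and TFRC and FTL were lowest among controls in siCTRL 2.

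Because STEAP3 had the largest difference of the set, the sequence before its start site is shown. The 247 bases that precede the annotated gene (RefSeq, GRCh38.p14, chr2:119223584-119223830, plus strand) hold the GC box GGGCGG at 3 places on this strand or its complement, in capitals.
STEAP3 upstream: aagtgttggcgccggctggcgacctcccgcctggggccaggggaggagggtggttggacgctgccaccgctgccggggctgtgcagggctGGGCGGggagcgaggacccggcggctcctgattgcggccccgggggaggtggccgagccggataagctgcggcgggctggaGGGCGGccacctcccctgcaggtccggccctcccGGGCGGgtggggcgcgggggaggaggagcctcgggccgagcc

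The GC box was present within 250 bases upstream in 42.6% of 35116 RefSeq promoters, and TFRC and ACO1 held 3 and 6 of them in their windows. None of the other patterns searched, CACGTG (E-box), TGACNNNGC (antioxidant response element), TGATGNAA (C/EBP-ATF element), ACGTG and GCGTG (hypoxia response cores), TGCGCNC and TGCACNC (metal response elements), CCAAT or TATAAA, had a match in the STEAP3 window on either strand. These say only which letters the windows hold. Windows of 8 of the 10 members were used, without FTH1 and SLC39A14. Member promoters on chromosome 8, where SLC39A14 lies, were left out, so whether RefSeq gives one for it is not stated here.

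TFRC, the receptor that brings transferrin into the endosome where STEAP3 acts, was lower as well. Its level was 254, 241 and 230.2 CPM in siRNA-1 libraries, against 463, 334 and 494 CPM in siCTRL libraries. The groups did not overlap, although siCTRL 2 lay nearer to the siRNA-1 libraries than the other controls did. The means were 242 ± 12.1 CPM in siRNA-1 and 430.2 ± 85.1 CPM in siCTRL, 56.3% of control (log2 fold change -0.83, SE 0.11). Without siCTRL 2 the control mean was 479 CPM and the log2 fold change -0.998. TFRC (ENSG00000072274) occupies chr3:196027183-196082189 on the minus strand.

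SLC11A2 encodes the divalent metal transporter DMT1, which carries the reduced iron out of the endosome. It had 43.0, 47.8 and 43.2 CPM in siRNA-1 and 46.0, 51.2 and 43.8 CPM in siCTRL libraries, and the groups overlapped. The log2 fold change was -0.07 (SE 0.078), with a 95% interval from -0.24 to 0.10, and -0.02 without siCTRL 2. SLC39A14 encodes ZIP14, an importer of iron that is not bound to transferrin. Its levels were 158, 163 and 164 CPM in siRNA-1 and 172, 145 and 168 CPM in siCTRL libraries, with a log2 fold change of 0.00092 (SE 0.067, 95% interval -0.15 to 0.15). The siRNA-1 values lay inside the range of the controls, and without siCTRL 2 the log2 fold change was -0.086. SLC11A2 (ENSG00000110911) occupies chr12:50979401-51028566 on the minus strand and SLC39A14 (ENSG00000104635) chr8:22367249-22434129 on the plus strand.

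The ferritin genes were the most abundant members and differed little between groups. FTH1, whose heavy chain oxidises ferrous iron for storage, had 1129.7, 1049.5 and 1085 CPM in siRNA-1 libraries and 1045, 1056 and 1085 CPM in siCTRL libraries. The groups overlapped, and the log2 fold change was 0.04 (SE 0.050, 95% interval -0.07 to 0.14). FTL, whose light chain helps to build the iron core, had 4410.0, 4157 and 4059 CPM in siRNA-1 libraries and 4197, 2893 and 4280.1 CPM in siCTRL libraries. Its log2 fold change of 0.15 (SE 0.12, 95% interval -0.10 to 0.40) rested on siCTRL 2, and without that library it was -0.02. Both ferritin genes have many processed pseudogenes, so that the assignment of their reads is uncertain. The gene BEST1 overlaps 62.4% of the exonic bases of FTH1 on the other strand. Together FTH1 and FTL took 0.524% to 0.560% of all counts in siRNA-1 and 0.397% to 0.521% in siCTRL libraries. FTH1 (ENSG00000167996) occupies chr11:61959718-61967660 on the minus strand and FTL (ENSG00000087086) chr19:48965301-48966878 on the plus strand.

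NCOA4 encodes the receptor that delivers ferritin to autophagosomes, a route called ferritinophagy. It had 273, 270.0 and 264 CPM in siRNA-1 libraries, against 303, 293 and 304 CPM in siCTRL libraries. All siRNA-1 libraries lay below all controls, but the distance was small, with means of 269 ± 4.79 and 300.1 ± 5.78 CPM in siRNA-1 and siCTRL cultures (log2 fold change -0.16, SE 0.049, and -0.19 without siCTRL 2). SLC40A1, the ferroportin gene, was the member with the lowest level per kilobase. It had 16.6, 17 and 16.2 CPM in siRNA-1 libraries and 15.2, 12.4 and 15.8 CPM in siCTRL libraries. Its groups did not overlap, yet the log2 fold change of 0.19 (SE 0.11) had a 95% interval from -0.04 to 0.43 and was 0.08 without siCTRL 2. NCOA4 (ENSG00000266412) occupies chr10:46005088-46030714 and SLC40A1 (ENSG00000138449) chr2:189560579-189583758, both on the minus strand.

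The genes of both iron regulatory proteins were lower, by unequal amounts. ACO1 encodes the protein that is cytosolic aconitase while it holds an iron-sulfur cluster and IRP1 without it. It had 128, 126 and 122 CPM in siRNA-1 libraries, against 214, 222 and 214 CPM in siCTRL libraries. The groups were far apart and tight, with means of 125 ± 2.71 CPM in siRNA-1 and 216 ± 4.75 CPM in siCTRL, 57.9% of control (log2 fold change -0.79, SE 0.051). IREB2 encodes IRP2, which is degraded when iron is plentiful. It had 43.3, 45.0 and 43.0 CPM in siRNA-1 libraries and 48.5, 57.7 and 52.9 CPM in siCTRL libraries, which did not overlap. The means were 43.8 ± 1.10 CPM in siRNA-1 and 53.0 ± 4.59 CPM in siCTRL (log2 fold change -0.28, SE 0.074, and -0.22 without siCTRL 2). ACO1 (ENSG00000122729) occupies chr9:32384603-32454769 and IREB2 (ENSG00000136381) chr15:78437431-78501456, both on the plus strand.

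**Figure D2:**
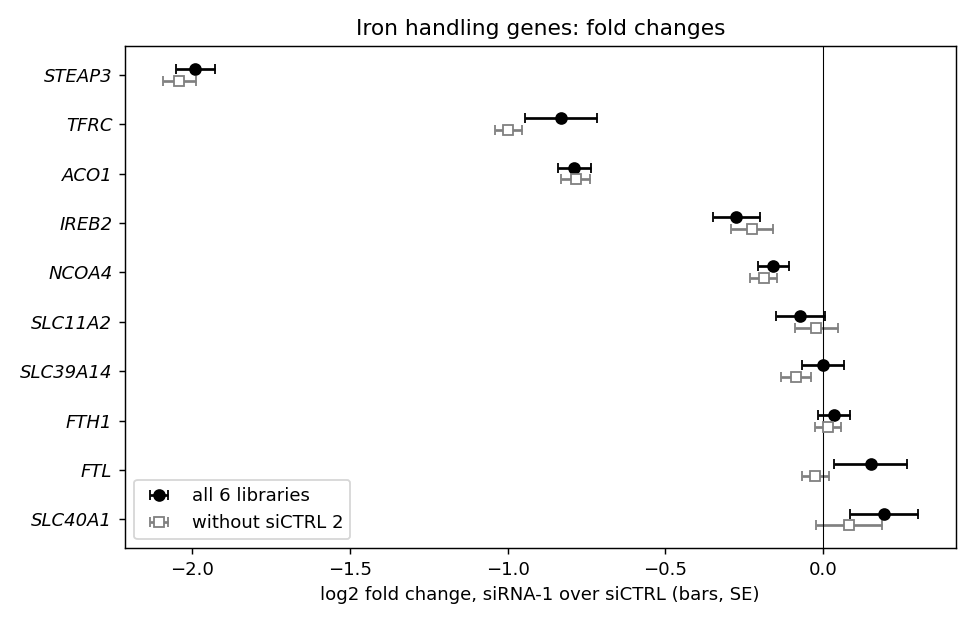
Log2 fold change of siRNA-1 over siCTRL (horizontal axis, bars are SE) for each iron handling gene, from all 6 libraries (filled) and without siCTRL 2 (open). STEAP3 lies at -1.99, TFRC at -0.83 and ACO1 at -0.79, and the value of FTL changes sign without siCTRL 2.

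At an adjusted p under 0.05 (edgeR's quasi-likelihood test, Benjamini-Hochberg over all genes fitted), 5 of the 10 members lay lower in siRNA-1 cells and the other 5 did not pass. Of all 12440 genes fitted 62.5% passed, 31% lower and 31.5% higher. The members were chosen with this comparison known, and nothing is read from their count. The 5 were STEAP3, TFRC, ACO1, IREB2 and NCOA4. NCOA4 no longer passed without siRNA-1 replicate 2 or without siRNA-1 replicate 3. STEAP3 was the 1 member lower by at least 2-fold, as were 8.14% of all genes fitted. The median log2 fold change of the members was -0.11, beside 0.01 over all genes fitted.

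Levels of different genes were set side by side as RPKM (reads per kilobase of exon and 1000000 reads), with the summed exon length of GENCODE 29, which understates genes with long, little used exons. In siRNA-1 cultures the order was FTL (4793 ± 206), FTH1 (536 ± 19.8), NCOA4 (65.9 ± 1.17), TFRC (30.7 ± 1.53), SLC39A14 (23.3 ± 0.485), ACO1 (16.6 ± 0.359) and STEAP3 (9.70 ± 0.398). SLC11A2 (4.40 ± 0.264), IREB2 (4.05 ± 0.102) and SLC40A1 (3.83 ± 0.0853) came last. In siCTRL cultures FTL (4317 ± 886), FTH1 (523 ± 10.3), NCOA4 (73.6 ± 1.42) and TFRC (54.5 ± 10.8) kept the same places, and STEAP3 was the fifth at 38.5 ± 1.73 RPKM. It was followed by ACO1 (28.7 ± 0.629), SLC39A14 (23.2 ± 2.10), IREB2 (4.91 ± 0.425), SLC11A2 (4.63 ± 0.374) and SLC40A1 (3.34 ± 0.418). STEAP3 thus stood above ACO1 and SLC39A14 in siCTRL and below both in siRNA-1 cultures. Between neighbours in these orders, the libraries overlapped only for IREB2 and SLC11A2 in siCTRL.

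**Figure D3:**
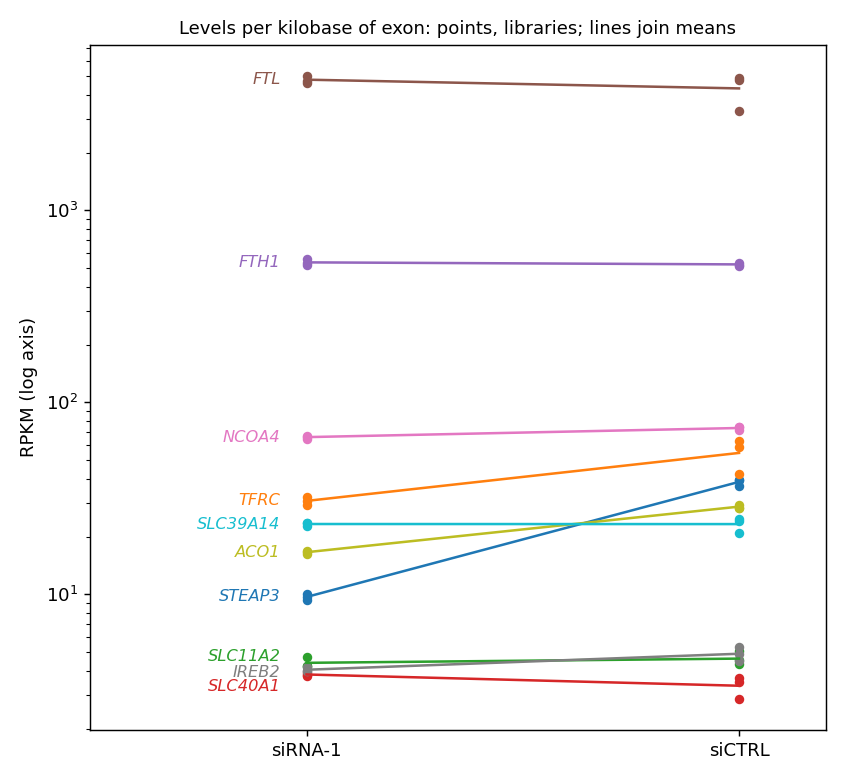
RPKM of the iron handling genes on a log axis, with siRNA-1 left of siCTRL. Points are libraries and lines join the group means: STEAP3 stands below ACO1 and SLC39A14 in siRNA-1 cultures (9.70 RPKM) and above them in siCTRL cultures (38.5 RPKM).

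Ratios within a library describe how members moved against one another, as unequal change and with no test, since they come from the same comparison. FTH1 exceeded TFRC 17.3, 16.9 and 18.3 times in siRNA-1 libraries and 8.77, 12.3 and 8.53 times in siCTRL libraries, as a ratio of RPKM. TFRC exceeded STEAP3 3.46, 3.03 and 3.02 times in siRNA-1 libraries and 1.49, 1.16 and 1.58 times in siCTRL libraries. Neither ratio overlapped between groups. IREB2 stood at 0.237 to 0.250 of ACO1 in siRNA-1 and at 0.159 to 0.182 in siCTRL libraries. FTL exceeded FTH1 8.65 to 9.16 times in siRNA-1 and 6.33 to 9.29 times in siCTRL libraries, and the low end of the control range was siCTRL 2. Since the assignment of ferritin reads is uncertain and BEST1 overlaps FTH1, the RPKM of FTH1 and FTL and the sizes of their ratios are uncertain too.

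**Figure D4:**
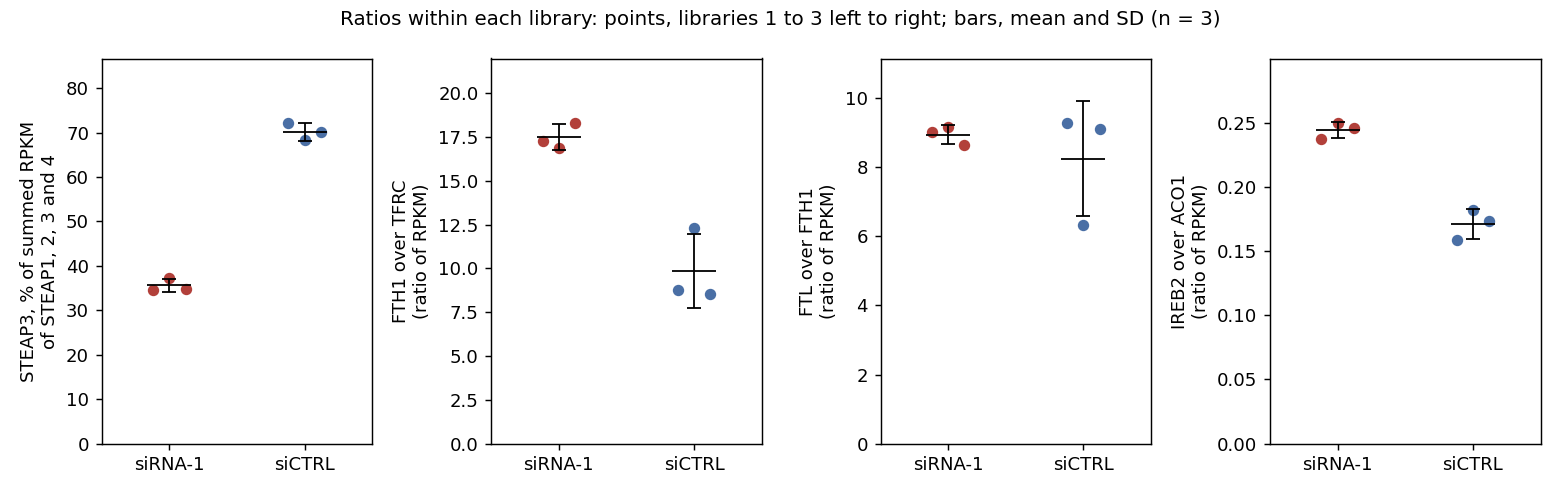
Ratios within each library (vertical axes from 0), siRNA-1 left of siCTRL. Points are libraries 1 to 3 from left to right and bars the mean and SD (n = 3): STEAP3 made up 34.6% to 37.4% of the RPKM summed over STEAP1, STEAP2, STEAP3 and STEAP4 in siRNA-1 libraries and 68.2% to 72.2% in siCTRL libraries.

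Neither of the other STEAP genes with enough counts to be tested, STEAP1 and STEAP2, passed with all 6 libraries. STEAP1 had 26.4 ± 0.982 CPM in siRNA-1 and 24.2 ± 1.35 CPM in siCTRL cultures (log2 fold change 0.13, edgeR adjusted p = 0.201). STEAP2, a copper and iron reductase, had 10.7 ± 0.368 CPM in siRNA-1 and 12.4 ± 1.58 CPM in siCTRL cultures (log2 fold change -0.20, 95% interval -0.47 to 0.06, edgeR adjusted p = 0.161). It passed without siCTRL replicate 1 (log2 fold change -0.32, edgeR adjusted p = 0.0435). STEAP4 had 6 to 12 counts in siRNA-1 and 3 to 9 counts in siCTRL libraries and STEAP1B had 1 to 4 and 2 to 6, and neither was tested. The share of STEAP3 in the RPKM of the 4 STEAP genes was 35.6% ± 1.5 in siRNA-1 and 70.2% ± 2.00 in siCTRL cultures. The 6 genes of this list also held CYBRD1, a plasma membrane ferric reductase, with 304 CPM in siRNA-1 and 295 CPM in siCTRL cultures (log2 fold change 0.04, edgeR adjusted p = 0.588). FRRS1, another ferric reductase gene, rose 1.45-fold, with 8.09 ± 0.930 CPM in siRNA-1 and 5.59 ± 1.01 CPM in siCTRL cultures (edgeR adjusted p = 0.0130). It was the 1 of 4 tested genes of the list that passed (25%, beside 62.5% of all genes fitted). FRRS1 did not pass without siRNA-1 replicate 1 or without siCTRL replicate 3.

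Genes whose level followed STEAP3 most closely over the 6 libraries were sought among 5216 genes of similar or higher level. The highest Pearson r of log2 CPM was that of ACTN1, which encodes alpha-actinin (0.9999), followed by the kinase gene STK38 (0.9999), RNF26 (0.9997), the lysosomal membrane protein gene SCARB2 (0.9996) and the phosphofructokinase gene PFKL (0.9995). These values mostly restate the distance between the 2 groups. Of deviations from the group means, the highest r were those of SERTAD2 (0.998), DDX54 (0.997), SEC14L1 (0.996), USB1 (0.993) and SF3B4 (0.992), and of these DDX54, USB1 and SF3B4 were higher in siRNA-1 cells. Among the members, ACO1 had the highest r with STEAP3 over the 6 libraries (0.994). With no limit on level, 335 of all 12440 genes fitted had a higher r, STEAP3 itself counted. The deviations of ACO1 within groups ran against those of STEAP3 (r = -0.654). All these correlations rest on 6 libraries that share their groups. The highest r of deviations were picked from 5216 genes, with the group means taken out of the 6 libraries. Values that high can arise so without any link to STEAP3.

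Beyond the members, 99 further genes of iron metabolism were placed in 11 lists, and 85 of them had enough counts to be tested. Of these, 29 rose, 23 fell and 33 did not pass (edgeR, adjusted p under 0.05), so that 61.2% passed, beside 62.5% of all genes. Without siCTRL 2, 28 of 87 rose and 33 fell, beside 4329 and 4306 of all 12562 genes of that fit. More genes passed in that fit, 8635 in place of 7772. Their median log2 fold change was -0.02, beside 0.01 over all genes. With all 6 libraries 31.5% of all genes fitted rose and 31% fell, shares to be set beside the counts of each list. Of the falls 6 were 2-fold or more, and none of the 29 rises was.

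Genes that control the iron regulatory proteins moved in both directions. FBXL5, the iron-sensing subunit of the ubiquitin ligase that degrades IRP2, fell 1.17-fold, with 75.9 ± 2.22 CPM in siRNA-1 and 89.0 ± 0.998 CPM in siCTRL cultures (edgeR adjusted p = 0.00335). CUL1, the scaffold of that ligase, rose 1.34-fold, with 179 ± 3.06 CPM in siRNA-1 and 134 ± 6.27 CPM in siCTRL cultures (edgeR adjusted p = 3.28e-05). Its adaptor gene SKP1 had 3.90 ± 1.19 CPM in siRNA-1 and 5.17 ± 0.687 CPM in siCTRL cultures and did not pass (log2 fold change -0.42, edgeR adjusted p = 0.123). It did pass without siCTRL replicate 2 or without siRNA-1 replicate 1. SKP1 had only 40 to 72 counts in siRNA-1 and 60 to 87 counts in siCTRL libraries. Whether reads of SKP1 were lost in the counting was not tested. All 4 tested genes of the list of other IRE messengers changed, 2 in each direction, where 62.5% of all genes fitted passed. EPAS1, the hypoxia factor HIF-2 alpha, fell 4.62-fold, with 33.3 ± 2.75 CPM in siRNA-1 and 154 ± 2.52 CPM in siCTRL cultures (edgeR adjusted p = 7.3e-10). The kinase gene CDC42BPA fell 1.61-fold (edgeR adjusted p = 1.4e-05). Among the rises was that of the phosphatase gene CDC14A, named after its values were seen (log2 fold change 0.48).

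In the transferrin cycle 1 of 6 tested genes rose, 1 fell and 4 did not pass, so that 33.3% passed, beside 62.5% of all genes. VPS35, a core subunit of the retromer that recycles endosomal cargo, fell 1.46-fold, with 131 ± 2.48 CPM in siRNA-1 and 191 ± 5.69 CPM in siCTRL cultures (edgeR adjusted p = 2.98e-06). Without siCTRL 2 or without siCTRL 3, 2 genes of the list fell. Among other importers, SLC39A8, which encodes the metal transporter ZIP8, rose 1.29-fold, with 78.4 ± 1.29 CPM in siRNA-1 and 60.6 ± 2.69 CPM in siCTRL cultures (edgeR adjusted p = 0.000181). LCN2, a carrier of iron-binding siderophores, fell 4.28-fold, with 1.04 ± 0.0830 CPM in siRNA-1 and 4.50 ± 0.368 CPM in siCTRL cultures (edgeR adjusted p = 5.23e-06). Of 10 genes of export and of hepcidin, the hormone that closes ferroportin, 3 were tested. Without siCTRL 2 or without siRNA-1 3, 4 were tested, of which 1 rose and 1 fell. HAMP, HJV, HEPH and CP had 0 counts in every library, as TF had, which allows at most 0.234 CPM. NEO1, a receptor that binds hemojuvelin, rose 1.28-fold (edgeR adjusted p = 0.0247), with groups that overlapped, and did not pass when any 1 of siRNA-1 replicates 1 and 2 and siCTRL replicates 1 and 3 was left out.

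Of 4 tested genes of ferritin loading and turnover, 2 rose and the other 2 did not pass (50% passed, beside 62.5% of all genes). Without siCTRL 2, 2 rose and 1 fell. HERC2, a ubiquitin ligase that acts on NCOA4, rose 1.32-fold, with 123 ± 6.94 CPM in siRNA-1 and 93.6 ± 2.30 CPM in siCTRL cultures (edgeR adjusted p = 0.000114). TAX1BP1, an autophagy receptor, rose 1.12-fold (edgeR adjusted p = 0.0323) and passed with all libraries and without siCTRL 2, but not where any other single library was left out. The other 2, named after their values were seen, were the iron chaperone genes PCBP1 (log2 fold change -0.12) and PCBP2 (log2 fold change 0.11). PCBP1 was the gene that fell without siCTRL 2 (log2 fold change -0.20, edgeR adjusted p = 1.95e-05).

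Mitochondria use iron to build iron-sulfur clusters and haem. Of 21 tested genes of mitochondrial iron import and cluster assembly, 8 fell, 4 rose and 9 did not pass, with a median log2 fold change of -0.17. Over all genes fitted 31% fell and 31.5% rose. Leaving out 1 library gave 6 to 9 falls and 2 to 4 rises, and the 2 rises were those without siRNA-1 replicate 3. ISCA1, which completes clusters of the larger kind, fell 3.00-fold, with 11.2 ± 1.17 CPM in siRNA-1 and 33.6 ± 1.22 CPM in siCTRL cultures (edgeR adjusted p = 7.36e-08). NDUFAB1, the acyl carrier protein of the assembly complex and of respiratory complex I, rose 1.56-fold, with 60.8 ± 3.42 CPM in siRNA-1 and 38.8 ± 3.33 CPM in siCTRL cultures (edgeR adjusted p = 1.86e-05).

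In the list of the cytosolic machinery, 7 of 12 tested genes rose and 2 fell, with a median log2 fold change of 0.22. This is 75% passed, beside 62.5% of all genes fitted, of which 31.5% rose and 31% fell. Leaving out 1 library gave 5 to 8 rises and 2 falls each time. CIAPIN1, an electron carrier of the pathway, rose 1.69-fold, with 75.5 ± 3.39 CPM in siRNA-1 and 44.7 ± 4.47 CPM in siCTRL cultures (edgeR adjusted p = 5.19e-06). CISD1, which was placed in this list although it encodes the outer membrane protein mitoNEET, rose 1.48-fold (edgeR adjusted p = 1.42e-05). CIAO1, a subunit of the complex that hands clusters to target proteins, fell 1.66-fold, with 70.3 ± 2.28 CPM in siRNA-1 and 117 ± 2.81 CPM in siCTRL cultures (edgeR adjusted p = 4.93e-07). Whether the cytosolic and the mitochondrial lists differ was not tested.

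**Figure D5:**
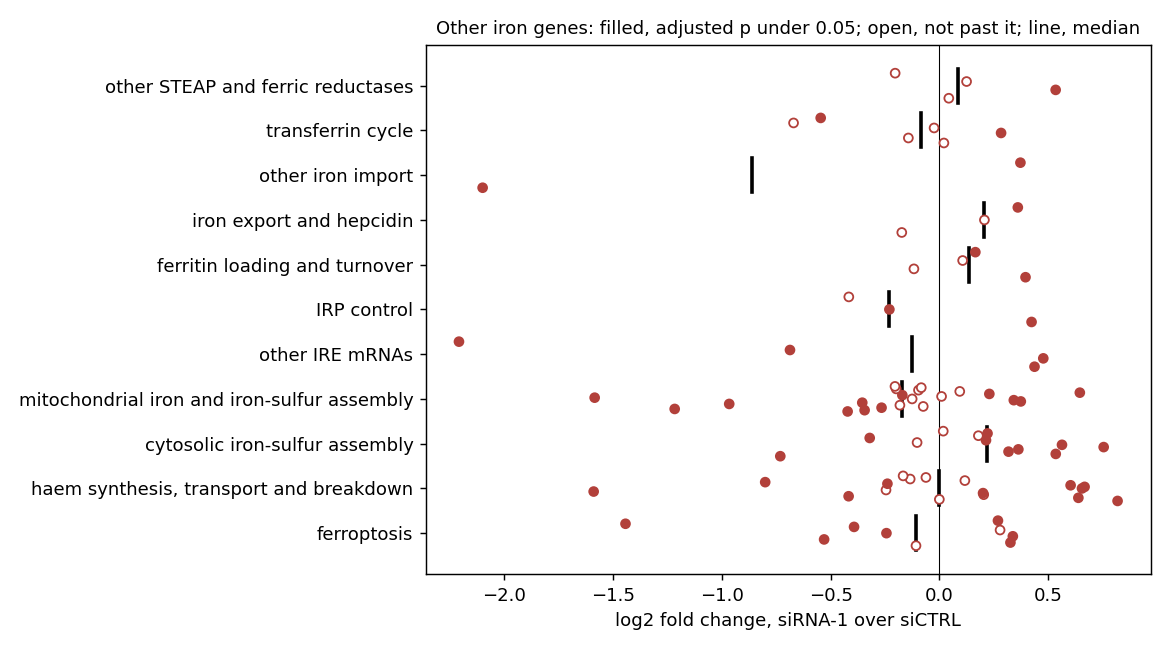
Log2 fold change of siRNA-1 over siCTRL (horizontal axis) for the 85 tested genes of the 11 iron lists. Each point is a gene, filled where the adjusted p was under 0.05, and lines give list medians. Genes of the cytosolic iron-sulfur list, which holds CISD1, lie mostly to the right of 0 (median 0.22). Those of the mitochondrial list lie mostly to the left (median -0.17), and whether the 2 lists differ was not tested.

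Of 17 tested haem genes 6 rose, 4 fell and 7 did not pass, so that 58.8% passed, beside 62.5% of all genes fitted. Without siCTRL 2, a fit in which more of all genes passed (8635 in place of 7772), 5 rose and 8 fell. In the other leave-one-out fits 4 fell. ALAS1, which opens the pathway, rose 1.56-fold, with 119 ± 6.48 CPM in siRNA-1 and 76.4 ± 1.36 CPM in siCTRL cultures (edgeR adjusted p = 2.41e-06). FECH, the ferrochelatase that inserts ferrous iron in the last step, fell 3.01-fold, with 9.54 ± 0.632 CPM in siRNA-1 and 28.7 ± 2.16 CPM in siCTRL cultures (edgeR adjusted p = 1.04e-07).

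Genes of ferroptosis, a death by iron-dependent lipid peroxidation, also moved both ways, with 4 of 9 lower, 3 higher and 2 that did not pass. Of these 9 genes 77.8% passed, beside 62.5% of all genes fitted. Leaving out 1 library gave 2 to 5 falls, the lowest without siRNA-1 replicate 2, and 2 or 3 rises, with 2 where siRNA-1 replicate 1 or 2 or siCTRL replicate 1 was left out. SLC7A11, the cystine importer that feeds glutathione, fell 2.72-fold, with 76.1 ± 2.03 CPM in siRNA-1 and 207 ± 16.6 CPM in siCTRL cultures (edgeR adjusted p = 8.61e-09). SLC3A2, its partner chain, fell 1.31-fold (edgeR adjusted p = 6.44e-05), and AIFM2, which encodes the lipid radical suppressor FSP1, rose 1.25-fold (edgeR adjusted p = 0.00202). GPX4, the peroxidase at the centre of the pathway and named after its values were seen, had 265 CPM in siRNA-1 and 313 CPM in siCTRL cultures (log2 fold change -0.24, edgeR adjusted p = 0.0120).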

How the data were processed

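The deposited table gives raw counts per Ensembl gene, made by the authors with HTSeq per the submitters' processing notes, which also name Trimmomatic, STAR, kallisto and the build hg38. No source used here gives the annotation release, the strand setting or any filter. All 20042 genes had a symbol, and 19829 had a position in GENCODE 29. The analysis of these counts used edgeR 4.0.16 (R 4.3.3): filterByExpr (minimum count 10, total 15) kept 12440 genes, TMM factors ranged from 0.972 to 1.02, and siRNA-1 was compared with siCTRL by the two-sided quasi-likelihood F test, adjusted over all genes fitted by Benjamini-Hochberg. The SE is the log2 fold change over the root of F, and 95% intervals were computed from it. The procedure was also run on simulated counts, and the outcome is not reported here. Alternatives used DESeq2 1.42.0, limma 3.58.1, other scalings and filters, a replicate block, each library left out and a threshold of 0.01. The members and lists were chosen with earlier results of these data known. Named genes were all members, the STEAP and IRP control genes, and up to 3 called genes of smallest p per list, of which some are not reported here. Likeness to STEAP3 was ranked among genes with a mean log2 CPM (prior count 2) no more than 1 below its own.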

Additional observations from a re-analysis of the deposited data

How the results depend on the processing

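Over the alternatives run, the iron pathway genes that rose numbered 20 to 32 and those that fell 19 to 33, beside 29 and 23 with the settings used, and each count stayed within 1.5 times. Leaving out 1 library gave 21 to 28 rises and 19 to 33 falls, and the threshold of 0.01 gave 20 and 19. Over all genes, leaving out 1 library called 6848 to 8635, the most without siCTRL 2. STEAP3 ranged from -2.04 to -1.95 on the log2 scale, TFRC from -0.998 to -0.72 and ACO1 from -0.83 to -0.75. Values near 0 changed sign: FTH1 was -0.0021 at a mean of at least 100 counts and FTL -0.025 without siCTRL 2 (-0.025 to 0.243 over the libraries left out). SLC39A14 was -0.0065 with DESeq2 size factors, -0.0064 with the DESeq2 Wald test, -0.036 at a mean of at least 100 counts, and -0.086 to 0.036 over the libraries left out (-0.086 without siCTRL 2, -0.0027 and -0.0049 without siRNA-1 2 and 3). The cause was not tested. Same-numbered libraries did not deviate together (correlations 0.0669, -0.0782 and -0.0571). With 3 libraries per group these values cannot decide whether same-numbered cultures were handled together, which the labels do not state. With the replicate block 27 iron pathway genes rose and 22 fell, and 7535 genes were called in place of 7772. Of the 99 genes of the lists, 14 had too few counts to test.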

Other observations

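The 7-base sequence GCTCACT, picked in earlier work from genes that fell in these same libraries and so no separate evidence, was looked up in the 3′ UTRs of GENCODE 29. It was absent from the annotated 3′ UTRs of STEAP3, TFRC and ACO1 and present in those of 3 of the 10 members, IREB2, SLC11A2 and SLC39A14, beside 20.4% of 12344 fitted genes. Of 18 other iron genes that carried it, 2 rose and 8 fell (median log2 fold change -0.27). Of 67 that did not carry it, 27 rose and 15 fell (median 0.09). Carriers among the falls included EPAS1, ISCA1 and CIAO1. Over all fitted genes with a 3′ UTR, 47.1% of carriers and 26.9% of the others fell, beside 44.4% and 22.4% of the iron genes. No source used here gives the sequence of siRNA-1, and whether the 7 bases take part in these falls was not tested.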
